A study of Mus musculus with 9 samples.

Results

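This account covers 7845 genomic regions that lie inside introns, more than 5 kb from the nearest annotated start site, and that carried more H3K27me3 in the RANKL culture than in the WENRC culture of mouse duodenal organoids. They were taken from the authors' list of 35798 RANKL-higher regions by 3 conditions: an autosome (1 to 19), an annotation that begins with an intron, and a distance from the region centre to the nearest start site of over 5000 bp. The opposite list, of WENRC-higher regions, holds 13607 entries, of which 3513 meet the same conditions, and these were used for comparison. The labels call the RANKL culture intestinal M cells, the WENRC culture intestinal stem cells and the ENRI culture enterocytes. The culture abbreviations are not spelled out there, so they serve as names, and no strain, age or allele is given. For H3K27me3 ChIP-seq the authors pooled the 2 RANKL libraries to 32.7 M tags, and WENRC has 1 library of 36.3 M tags. Nascent transcription was measured by GRO-seq, which reads the RNA made by engaged polymerases in isolated nuclei, with 2 libraries of each of the 3 cultures.

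H3K27me3 is laid down by the Polycomb complex PRC2 and marks chromatin of genes that are held silent, often developmental and tissue-restricted genes. The mark is seeded at CG-rich start sites and can spread over gene bodies as broad domains, and its level tends to be low over actively transcribed genes. Intestinal stem cells sit at the crypt base and depend on Wnt and R-spondin signals, whereas M cells form over lymphoid follicles in response to the cytokine RANKL and pass antigens to immune cells beneath.

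The sequences shown first are start-site sequences of 4 genes whose introns hold these regions and which also have a RANKL-higher region within 1 kb of their start. Grik4 held the most regions of all genes, Pcsk6 was transcribed less in RANKL, and Cdh23 and Camk2b were transcribed more. Each run covers 250 bases before to 50 bases after the start given by RefSeq for GRCm38.p6, a build other than the mm9 build of the regions, with every CG in capitals. They lie at chr9:42944322-42944621 (minus strand, Grik4), chr7:65861886-65862185 (plus strand, Pcsk6), chr10:60696441-60696740 (minus strand, Cdh23) and chr11:6065699-6065998 (minus strand, Camk2b).
Grik4: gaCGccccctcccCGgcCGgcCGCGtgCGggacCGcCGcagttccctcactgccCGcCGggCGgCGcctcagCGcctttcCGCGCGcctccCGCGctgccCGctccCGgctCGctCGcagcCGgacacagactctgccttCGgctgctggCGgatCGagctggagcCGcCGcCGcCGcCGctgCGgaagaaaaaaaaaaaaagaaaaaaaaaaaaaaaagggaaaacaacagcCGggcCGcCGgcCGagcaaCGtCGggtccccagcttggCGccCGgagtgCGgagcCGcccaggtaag
Pcsk6: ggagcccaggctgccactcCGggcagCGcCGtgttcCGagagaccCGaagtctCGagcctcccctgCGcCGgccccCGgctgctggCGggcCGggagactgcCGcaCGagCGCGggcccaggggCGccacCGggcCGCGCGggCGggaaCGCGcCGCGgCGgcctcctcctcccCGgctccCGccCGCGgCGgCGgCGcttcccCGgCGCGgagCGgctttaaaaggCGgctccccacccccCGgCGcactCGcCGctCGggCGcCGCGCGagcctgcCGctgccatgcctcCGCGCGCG
Cdh23: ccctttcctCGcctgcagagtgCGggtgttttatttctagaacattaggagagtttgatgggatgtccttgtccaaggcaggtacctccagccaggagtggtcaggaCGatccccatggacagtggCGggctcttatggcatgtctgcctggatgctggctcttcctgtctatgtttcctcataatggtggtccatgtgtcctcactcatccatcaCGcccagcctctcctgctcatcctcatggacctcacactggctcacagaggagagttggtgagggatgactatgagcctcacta
Camk2b: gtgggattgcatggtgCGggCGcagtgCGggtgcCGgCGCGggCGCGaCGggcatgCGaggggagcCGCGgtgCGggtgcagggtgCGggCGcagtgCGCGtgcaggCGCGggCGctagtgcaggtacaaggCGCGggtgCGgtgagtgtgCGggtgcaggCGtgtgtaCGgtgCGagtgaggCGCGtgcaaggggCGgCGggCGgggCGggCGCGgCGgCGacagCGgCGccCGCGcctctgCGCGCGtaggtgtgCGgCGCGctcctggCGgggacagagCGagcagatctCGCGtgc
The motif searched was CG, which reads the same on both strands. Grik4 had 42 occurrences in its 300 bases, Pcsk6 52, Camk2b 51 and Cdh23 5. Of 32851 promoters of the same length in the table, 94.6% held at least 1 CG, the median was 7 and 34.6% held 15 or more. These genes were picked for their regions near the start, so their CG counts describe 4 sequences and not host genes in general. Other hosts named below with such a region are not shown, among them Kif26b with 38 occurrences, Syt14 with 29, Slc16a10 with 26 and Crnde with 22.

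The intronic regions were mostly small and were set apart by a moderate difference in tags. The pooled RANKL libraries had a median of 27 tags per region (range 16 to 917), against 9 WENRC tags after the authors' scaling by 0.9 (range 0.5 to 373.6). The authors' fold, a ratio of tags, had a median of 2.96 with quartiles of 2.57 and 3.52, and 1258 regions (16%) reached a fold of 4, against 13.4% of all RANKL-higher regions. The regions were chosen by the authors' tag ratio and p-value between the 2 cultures, so tags, folds and p-values are given as a description. Each rests on pooled RANKL against 1 WENRC library and has no replicate check.

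In width, RANKL-higher and WENRC-higher intronic regions differed. Of the RANKL-higher regions 54.1% had the minimum size of 500 bp, against 78.3% of the WENRC-higher ones. Regions over 2 kb numbered 367 (4.68%) in RANKL and 19 (0.541%) in WENRC, and the widest spanned 16732 bp in RANKL and 3777 bp in WENRC. In total the RANKL-higher regions covered 6.31 Mb and the WENRC-higher ones 2.02 Mb. The first list came from 2 pooled libraries and the second from 1, and the part this plays in widths and numbers was not tested.

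RANKL-higher regions lay along the whole gene body. When each host gene, meaning the gene whose intron holds the region, was cut into 10 equal parts, the part nearest the start held 6.60% of regions, the part nearest the end 8.14%, and the 8 parts between held 10.1% to 11.4% each. The distance limit of 5 kb removes regions from the ends of this range. Intron 1 held 2315 regions (29.5%) and the last intron 570 (7.27%). The median distance to the nearest start site was 28153 bp, 2520 regions (32.1%) lay beyond 50 kb and 1091 (13.9%) beyond 100 kb. WENRC-higher intronic regions lay farther out, with a median of 40033 bp and 42.8% beyond 50 kb. For 2343 regions (30.1% of those with a listed host) the nearest start site belonged to a gene other than the host.

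The regions came in runs. The median gap to the previous region on the chromosome was 10024 bp, against 82434 bp for the WENRC-higher regions, which are fewer. When regions no more than 10 kb apart were joined, 69.4% of RANKL-higher and 31.4% of WENRC-higher regions had at least 1 neighbour. Runs of 5 or more regions numbered 307 in RANKL and held 2324 regions (29.6%), against 18 runs with 114 regions (3.25%) in WENRC. The longest run had 24 regions over 84.3 kb in Garnl3 (mm9 chr2:32852602-32936928). The next had 23 regions over 90.5 kb in Tspan9, a tetraspanin, and 21 each in Spats2l and in Enah, a regulator of actin filament growth. In Lmx1b, a LIM homeodomain transcription factor, a run of 18 regions covered 48.7% of its 67.1 kb, the highest coverage among the 12 longest runs.

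A minority of long genes held most of the regions. Of the 7845 regions, 7796 could be placed in 2162 host genes of the GRO-seq table, and 49 had a host not listed there. A single region was found in 911 hosts (42.1%), while 354 hosts with 6 or more regions held 4238 regions (54.4%) and 175 hosts with 10 or more held 2961 (38.0%). Of the fewer WENRC-higher regions, 13.6% lay in the 37 hosts with 10 or more, which were 2.39% of their hosts. In the RANKL-higher list the 175 such hosts were 8.09%. A fixed cut at 10 regions therefore does not compare concentration between lists of unlike size. Host genes had a median length of 57.3 kb, against 14.2 kb for all autosomal genes and 95.3 kb for hosts of WENRC-higher regions. A RANKL-higher region also lay within 1 kb of the start of 794 hosts (36.7%) and within 5 kb of the start of 1336 (61.8%).

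The 10 hosts with the most regions include several genes of neuronal signalling and cell adhesion. Grik4, a kainate-type glutamate receptor subunit, had 60 regions spread from 6.81 to 417 kb along its 424 kb, with summed tags of 3117 in RANKL and 1152.0 in WENRC (scaled). Kirrel3, an immunoglobulin-domain adhesion protein, had 42 regions from 5.81 to 541 kb of its 548 kb. Megf11, a membrane protein with EGF-like repeats, had 40, and Skap1, an adaptor of T cell receptor signalling, had 35. Cadm1, an adhesion molecule, and Garnl3 had 34 each, as did the uncharacterised gene A930011G23Rik. Cdh23, the cadherin of hair cell tip links, and Kif26b, a kinesin family member, had 33 each, and Lingo1, a leucine-rich repeat protein of neurons, had 32. In Garnl3 and Lingo1, 10 and 21 of these lay upstream of the listed start, in introns of longer transcripts. Apart from Kirrel3 with 7 and Skap1 with 5, these hosts held 0 to 3 WENRC-higher intronic regions.

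**Figure D1:**
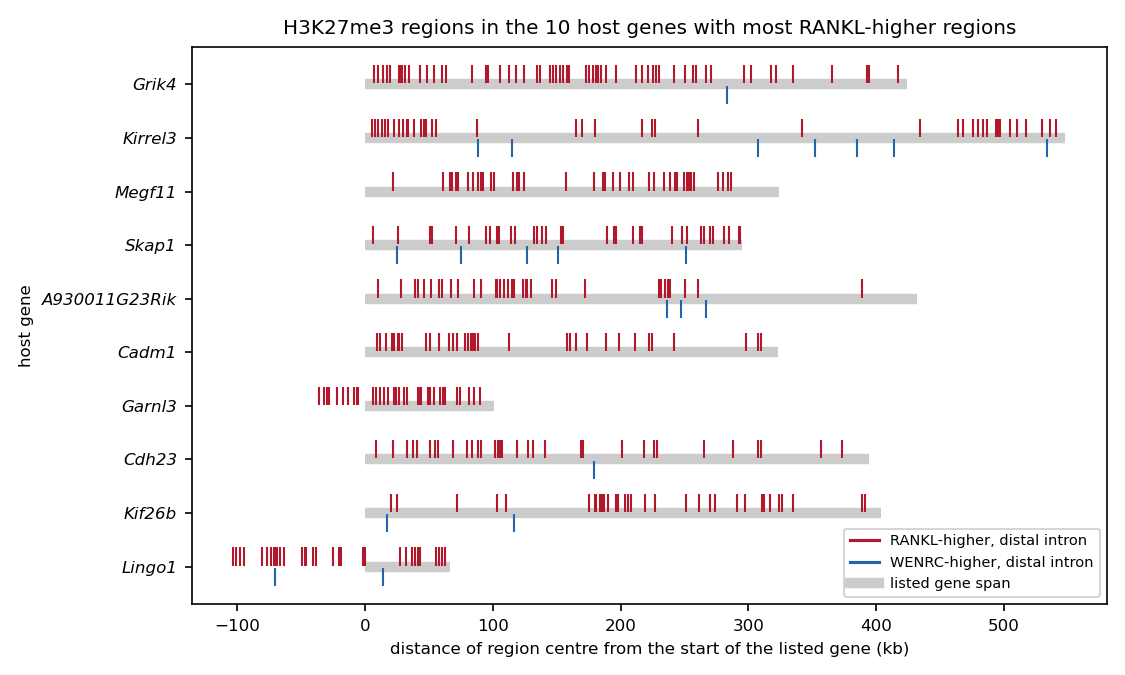
Positions of H3K27me3 regions in the 10 host genes with the most RANKL-higher distal intron regions; the x axis is the distance of the region centre from the start of the listed gene in kb, grey bars are gene spans, red ticks RANKL-higher and blue ticks WENRC-higher regions. Grik4 carries 60 red ticks along its whole length and 1 blue tick, and in Garnl3 and Lingo1 some red ticks lie upstream of the listed start.

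Most of these hosts were not called as changed in transcription. GRO-seq values are log2 values as normalized by the authors, and changes are RANKL minus WENRC from limma with Benjamini-Hochberg adjustment. Their transform is not named, and at genes with low values the changes can be smaller than the authors' own log2 folds. Grik4 had values of 8.08 and 7.73 in RANKL, 7.21 and 8.62 in ENRI, and 7.89 and 8.40 in WENRC. The ranges overlapped and the change was -0.24 (SE 0.47, adjusted p = 0.780). The other hosts of this group that missed the threshold had changes between -0.56 and 0.37, except Lingo1, which was below the filter on low values with 2.85 to 3.27 in the 6 libraries.

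Cadm1 and Cdh23 were the exceptions and went in opposite directions. Cadm1 had 8.14 and 8.16 in RANKL, 11.57 and 10.46 in ENRI, and 10.29 and 9.72 in WENRC. Both RANKL values lay below the other 4, and transcription fell by 1.86 relative to WENRC (SE 0.38, adjusted p = 0.0309). Cdh23 had 9.35 and 9.46 in RANKL, 7.81 and 7.70 in ENRI, and 8.17 and 7.87 in WENRC. Both RANKL values lay above the rest, and transcription rose by 1.38 (SE 0.16, adjusted p = 0.00739). Each overlaps a listed gene (Gm10677 for Cadm1, Gm17455 and Vsir for Cdh23) whose reads cannot be told apart without strand. The Cadm1 call was lost without any 1 RANKL or WENRC library, and the Cdh23 call without either RANKL library or WENRC library 2.

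By density, the leading hosts were short genes with very low transcription. Syt3, a synaptotagmin, held 31.4 regions per 100 kb, Scube3 31.2, Vstm2l 29.9, Rhcg, an ammonia transporter, 28.8, Trim29 27.6 and Cntfr, a subunit of the receptor for ciliary neurotrophic factor, 26.3. Each also had a RANKL-higher region within 1 kb of its start, and none held a WENRC-higher intronic region. Their GRO-seq values ranged from 2.38 in an ENRI library (Trim29) to 4.49 in an ENRI library (Vstm2l). Syt3, Rhcg and Trim29 were below the filter, and Scube3, Vstm2l and Cntfr had changes of -0.17, -0.35 and 0.27 with adjusted p from 0.331 to 0.635.

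Genes with RANKL-higher intronic regions were transcribed at lower levels in all 3 cultures than genes without. Among autosomal genes of at least 50 kb, those with no region had a median level per kb (log2 value minus log2 of the length in kb) of 3.05 in RANKL, 2.83 in ENRI and 2.91 in WENRC over 3452 genes. With up to 2 regions per 100 kb, the medians were -1.24, -1.14 and -1.25 over 606 genes. In the 99 genes with over 10 regions per 100 kb they were -1.36, -1.39 and -1.46. Levels in the 4 classes with regions were close to each other, and the step lay between no region and any region. The median change between RANKL and WENRC stayed between 0.05 and 0.13 in the 5 classes. Among genes with no region 12.2% of those tested were called higher in RANKL and 2.52% lower, whereas in the 4 classes with regions 4.4% to 6.59% were higher and 3.30% to 5.02% lower.

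**Figure D2:**
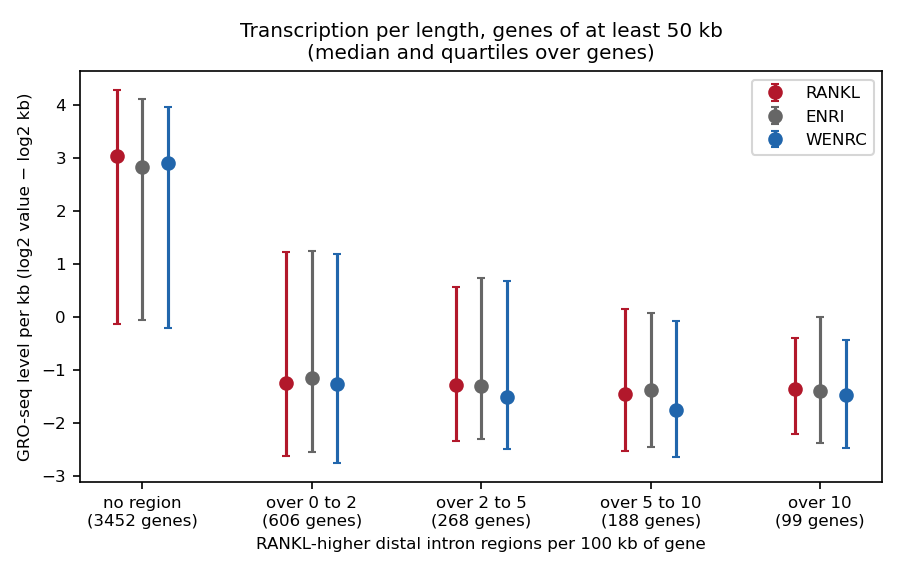
GRO-seq level per kb (log2 value minus log2 kb) in autosomal genes of at least 50 kb, by the number of RANKL-higher distal intron regions per 100 kb; points are medians over genes of the mean of 2 libraries, and bars run from the lower to the upper quartile. Genes with no region have medians from 2.83 to 3.05, and all classes with regions lie below -1.1 in each culture.

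Host genes were called in both directions. Of the 1685 hosts that passed the filter on low values (at least 2 libraries at log2 of 10), 72 were lower in RANKL (4.27%) and 111 were higher (6.59%). Over the 16563 genes tested, 3.62% were lower, 8.53% were higher and 12.1% were called in either direction. The median change was 0.02 over hosts and -0.01 over all genes tested. With libraries recentred on their upper quartiles, which moved the median of all genes to -0.12, the host counts became 92 lower and 94 higher, a share of higher calls of 50.5% in place of 60.7%. Before recentring, the remaining 477 hosts (of 2162) fell below the filter.

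These counts depend on the spread taken from few libraries. Without either RANKL library, limma called 0 genes (2683 and 2463 at an unadjusted p under 0.05), and without either WENRC library 5 hosts were lower and 28 higher. Leaving out both ENRI libraries raised the counts to 222 lower and 216 higher of 1655 hosts tested, and leaving out 1 of them also raised the counts. The shares over all genes tested rose too, to 13.4% lower and 18.3% higher without both. The RANKL labels do not say that libraries 1 and 2 came from separate animals or cultures, so p-values measure the spread between these libraries. The file header marks the RANKL libraries as a combined repeat sequencing, so sequencing batch and culture cannot be told apart, and in bulk samples neither can fewer cells of a type and less RNA per cell.

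The share of hosts called lower was larger where the H3K27me3 difference was larger. Hosts whose highest fold was under 3 were called lower in 2.10% of 381 cases, those from 3 to under 4 in 2.75% of 618, and those of at least 4 in 6.85% of 686. At a highest fold of at least 6, a class added after the values were seen, 23 of 226 hosts (10.2%) were lower. The share called higher stayed between 6.12% and 7.61% in these 4 classes. In each of the 11 settings that gave any calls, the share lower was above that of all genes tested for hosts of a fold of at least 4 and below it for the other hosts. The difference between the classes was not tested, and hosts with more regions have more chances of a high fold.

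A second division was by other H3K27me3 changes of the same gene. Hosts with no WENRC-higher intronic region were called lower in 5.98% of 1003 cases and higher in 6.38%, with a median change of -0.06. The 682 tested hosts that also held WENRC-higher intronic regions were called lower in 1.76% and higher in 6.89%, with a median of 0.16. Hosts with a RANKL-higher region within 5 kb of their start were called lower in 5.33% of 1032 cases, and hosts with none there in 2.60% of 653. Both features together, a region near the start and no WENRC-higher intronic region, gave 7.40% lower and 6.46% higher of 635, with a median of -0.11. Genes with a RANKL-higher region within 1 kb of the start and none in distal introns were called lower in 7.75% of 955 cases, and hosts of WENRC-higher intronic regions alone in 1.14% of 615. The median over all hosts itself became -0.16 without WENRC library 1 and 0.17 without WENRC library 2.

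The shares were also set beside those of other autosomal genes of like length. From 30 to 100 kb, 7.11% of hosts and 11.9% of other genes were higher, and from 100 to 300 kb 5.03% and 12.6%. Up to 30 kb the shares were 7.82% and 7.14%, and over 300 kb 6.87% and 6.96%. The shares called lower were 5.10% and 4.0% up to 30 kb, 3.63% and 2.62% from 30 to 100 kb, 4.43% and 3.16% from 100 to 300 kb, and 4.72% and 2.20% over 300 kb. The median change rose with length, from -0.10 up to 30 kb to 0.19 over 300 kb in hosts. In other genes it rose from -0.08 to 0.18. The division by WENRC-higher regions above was not matched for length. Differences in these shares and medians were not tested.

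**Figure D3:**
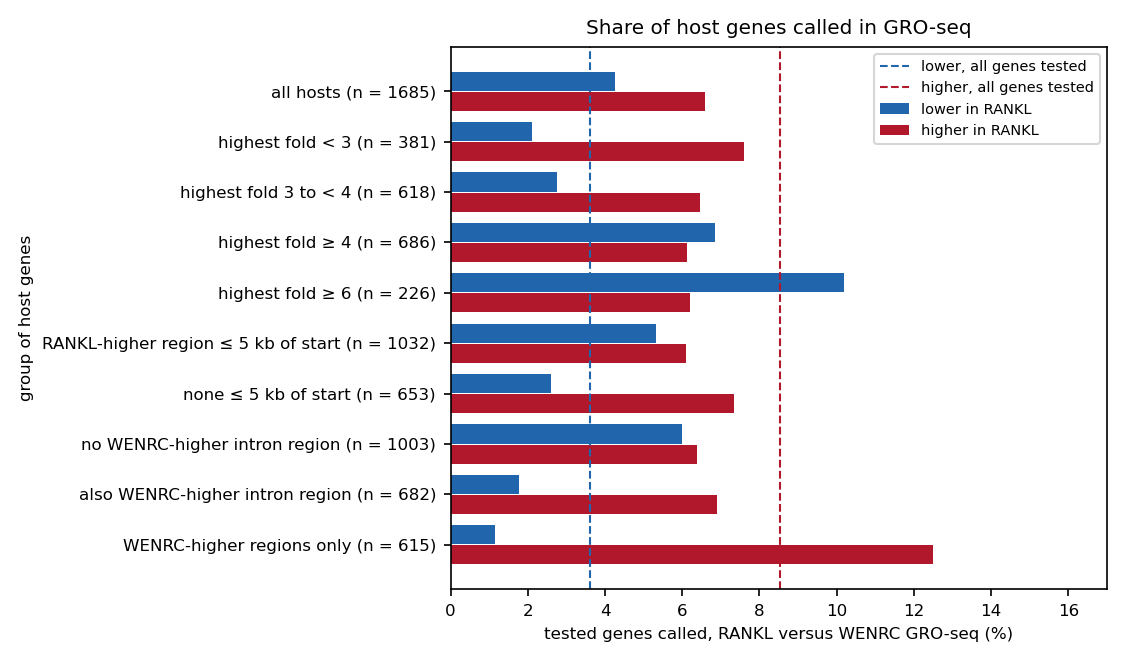
Share of tested host genes called lower (blue) or higher (red) in RANKL than in WENRC GRO-seq, in percent on the x axis, by group of host genes on the y axis with the number tested; dashed lines give the shares over all 16563 genes tested. The blue bar passes its line at a highest fold of at least 4 (6.85%) and of at least 6 (10.2%), and falls short of it where WENRC-higher intronic regions are also present (1.76%).

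Of 715 tested hosts with 3 or more regions, 35 were lower and 44 higher (4.90% and 6.15%, against 3.62% and 8.53% of all genes tested). The largest fall was at Lgr5, the R-spondin receptor that marks crypt stem cells. It had 8.75 and 8.84 in RANKL, 8.89 and 8.51 in ENRI, and 11.64 and 11.99 in WENRC. Both WENRC values lay far above the RANKL and ENRI values, which overlapped, and the change was -3.02 (SE 0.19, adjusted p = 0.00166). Lgr5 (mm9 chr10:114887370-115024836, minus strand) held 11 RANKL-higher intronic regions from 26.3 to 109 kb of its 137 kb, with 996 RANKL tags against 275.4 scaled WENRC tags and a highest fold of 8.05. It also had a RANKL-higher region within 1 kb of its start and no WENRC-higher intronic region. A listed gene, A930009A15Rik, overlaps it.

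The next 3 falls left RANKL as the lowest culture. Pcsk6, a proprotein convertase, had 7.23 and 7.23 in RANKL, 10.38 and 8.88 in ENRI, and 10.08 and 9.81 in WENRC. The RANKL values lay below the other 4, with a change of -2.72 (SE 0.46, adjusted p = 0.0179), and its 9 regions stood in intron 1 between 10.1 and 31.6 kb of a 188 kb gene. Hoxb3, a homeobox transcription factor, had 5.29 and 5.11 in RANKL, 7.80 and 6.98 in ENRI, and 8.06 and 7.69 in WENRC. Here too both RANKL values lay below the rest, with a change of -2.67 (SE 0.31, adjusted p = 0.00701) and 3 regions. Crnde, a long noncoding RNA, had 5.15 and 4.87 in RANKL, 6.47 and 6.62 in ENRI, and 7.47 and 7.36 in WENRC. The 3 cultures did not overlap, and RANKL was lower than WENRC by 2.40 on the log2 scale (change -2.40, SE 0.20, adjusted p = 0.00268).

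The other 4 largest falls had RANKL values below those of WENRC in each library. Syt14, a synaptotagmin family member with 6 regions, had 5.74 and 5.18 in RANKL against 7.93 and 7.70 in WENRC (change -2.36, SE 0.37, adjusted p = 0.0146). Zc3h12c, an RNA-binding zinc finger protein with 6 regions, had 5.72 and 5.68 against 7.81 and 7.94 (change -2.17, SE 0.52, adjusted p = 0.0491). Slc16a10, an aromatic amino acid transporter with 3 regions, had 7.41 and 6.99 against 9.63 and 9.01 (change -2.12, SE 0.34, adjusted p = 0.0153). In ENRI, Slc16a10 was highest at 10.34 and 11.14. The microRNA gene Mir6244 lies within Zc3h12c. None of the 8 genes with the largest falls held a WENRC-higher intronic region, and 6 of the 8 had a RANKL-higher region within 1 kb of their start.

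Il22ra1, the receptor subunit through which epithelium senses interleukin 22, combined a fall with 2 of the 5 regions of smallest p. It had 7.26 and 7.12 in RANKL, 10.73 and 11.47 in ENRI, and 9.53 and 9.06 in WENRC. The 3 cultures did not overlap, RANKL was lowest, and the change from WENRC was -2.11 (SE 0.28, adjusted p = 0.00970). Its intron 4 carried a region at mm9 chr4:135292435-135296418 with 239 RANKL tags against 21.6 scaled WENRC tags, a fold of 11.06 (95% exact interval 7.26 to 17.6, counting error only). Its intron 5 carried a region at chr4:135298712-135304406 with 333 against 49.5 tags, a fold of 6.73 (5.05 to 9.12).

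The other 3 regions of smallest p were wide blocks. In intron 1 of 2310022B05Rik a region of 16.7 kb (chr8:127172832-127189564) had 917 RANKL tags against 183.7, a fold of 4.99 (4.29 to 5.84), and a p listed as 0. By its extent this region, alone of all 7845, runs over a listed start site, although its centre lies 6071 bp away. The gene had 5.78 and 5.76 in RANKL, 7.55 and 7.28 in ENRI, and 7.60 and 7.46 in WENRC. RANKL was below both other cultures in each library, with a change of -1.76 (SE 0.18, adjusted p = 0.00522).

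Galnt7, a glycosyltransferase that starts or extends mucin-type sugars, held a region of 8.57 kb in intron 2 (chr8:60051385-60059956) with 438 tags against 88.2, a fold of 4.96 (3.98 to 6.25). The nearest start site is that of Hmgb2. Galnt7, which held 12 regions in all, had 9.62 and 9.67 in RANKL, 11.40 and 11.50 in ENRI, and 11.53 and 11.24 in WENRC. RANKL was again below the other cultures, with a change of -1.74 (SE 0.15, adjusted p = 0.00319). The region in intron 8 of Tbkbp1 (chr11:96995255-97002804, 567 tags against 145.8, fold 3.89) lay in a gene below the filter, with values of 3.02 to 3.26.

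Regions with the most tags were not all in genes whose transcription differed. After 2310022B05Rik, the most tags were in Lhx6 (830, fold 2.22), a homeobox factor of interneurons, Arid3a (811, fold 2.75), Asic4 (644, fold 2.25) and Sh2b2 (588, fold 2.66). The changes of these 4 hosts were -0.04, -0.13, -0.20 and -0.56, with adjusted p from 0.0924 to 0.907. The largest fold, 46.65, was of a region in D930015E06Rik with 21 tags against the floor of 0.5, and is not a measured ratio. Just inside the distance limit were regions in Acsl6 and Espn (5004 bp, folds 2.29 and 3.43) and Frmpd1 (-5007 bp, that is upstream of the nearest start, fold 6.22). Just outside it were Myt1 (4997 bp, fold 3.02), Adcy5 (4995 bp, fold 2.22) and Nfasc (4989 bp, fold 2.93).

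Several genes with these regions were transcribed more in RANKL. Col13a1, a transmembrane collagen, had 9.42 and 9.50 in RANKL, 3.63 and 4.93 in ENRI, and 3.08 and 4.84 in WENRC. RANKL stood far above both other cultures, which overlapped, and the change was 5.50 (SE 0.65, adjusted p = 0.00740). The gene held 13 RANKL-higher regions from 15.1 to 95.7 kb and 5 WENRC-higher ones from 88.2 to 125 kb, so the latter lay in the far part of the gene. No RANKL-higher region was within 1 kb of its start, but 2 were within 5 kb.

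Among the other rises, Ccdc33 had 9.47 and 9.74 in RANKL against 3.93 and 5.27 in WENRC (change 5.0, SE 0.43, adjusted p = 0.00321), with 6 RANKL-higher and 2 WENRC-higher intronic regions. Ccdc108 had 8.94 and 9.15 against 4.71 and 4.46 (change 4.46, SE 0.31, adjusted p = 0.00181). Adgrb1, an adhesion receptor that binds dying cells, had 7.74 and 7.60 against 3.51 and 3.98 (change 3.93, SE 0.28, adjusted p = 0.00185). Adgrb1 held 8 RANKL-higher regions, no WENRC-higher intronic one and a RANKL-higher region within 1 kb of its start. In these 3 genes the ENRI values, from 3.91 to 5.14, stayed below every RANKL value. Ccdc33 overlaps the listed gene Gm16130.

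Mylk, a myosin light chain kinase of smooth muscle and other cells, had 12.76 and 12.81 in RANKL, 10.77 and 11.52 in ENRI, and 9.04 and 8.56 in WENRC. The cultures did not overlap, and the change was 3.99 (SE 0.28, adjusted p = 0.00184). It held 4 RANKL-higher and 4 WENRC-higher intronic regions, and 1700119H24Rik and E130310I04Rik overlap it. Of 11 fibroblast and muscle markers, 8 were below the filter and 1 of the 3 tested was higher, Pdgfrb, with 9.21 and 9.26 in RANKL against 7.12 and 6.44 in WENRC. Their summed level on the linear scale was 824 and 880 in RANKL, 407 and 457 in ENRI and 512 and 361 in WENRC. Pdgfrb, with the highest mean of the list in RANKL (9.23), made up most of the RANKL sums. The sums therefore do not show a rise of the list as a whole. Col1a1, Dcn and Lum were below the filter, and the part of these markers in the rise of Mylk was not tested.

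Btbd11, a BTB-domain protein, had 10.34 and 10.39 in RANKL, 6.87 and 6.57 in ENRI, and 6.31 and 6.85 in WENRC. RANKL was highest and the other cultures overlapped, with a change of 3.78 (SE 0.23, adjusted p = 0.00144). It held 18 RANKL-higher regions, 14 of them in intron 1, and a RANKL-higher region within 1 kb of its start. Zbtb7c, a zinc finger repressor, had 10.71 in both RANKL libraries against 6.61 and 7.53 in WENRC (change 3.64, SE 0.29, adjusted p = 0.00262). In Zbtb7c, 8 of 10 RANKL-higher regions lay within 60 kb of the start, and 7 of 10 WENRC-higher ones lay beyond the last RANKL-higher region at 189 kb. Camk2b, a subunit of calcium/calmodulin-dependent kinase II, had 13.94 and 13.84 in RANKL, 12.26 and 10.48 in ENRI, and 11.73 and 10.16 in WENRC (change 2.95, SE 0.70, adjusted p = 0.0477). The gene 2900057B20Rik overlaps Zbtb7c.

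All 16 of these calls were lost when either RANKL library was left out, with adjusted p from 0.0584 to 0.278 and no change of direction, and so were those of 2310022B05Rik and Galnt7. 2310022B05Rik, Pcsk6, Hoxb3, Syt14, Zc3h12c, Slc16a10, Il22ra1 and Camk2b were lost without either WENRC library as well, and Zc3h12c and Camk2b also with no filter or with quantile normalization.

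**Figure D4:**
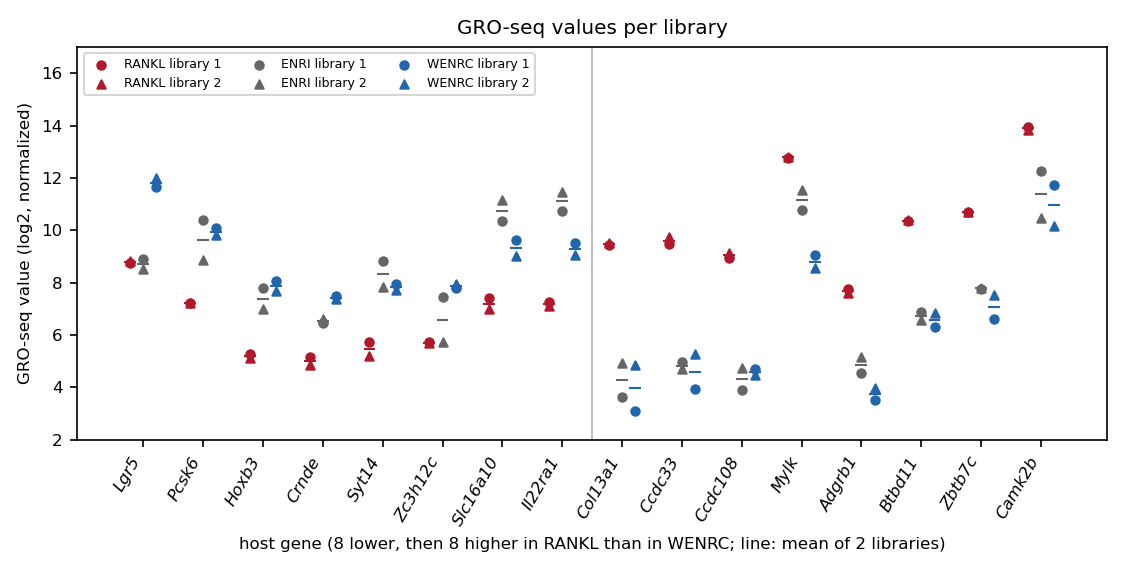
GRO-seq value per library (log2, normalized, y axis) for the 8 host genes of 3 or more regions with the largest falls and the 8 with the largest rises in RANKL against WENRC; circles and triangles are libraries 1 and 2, and short lines the means of 2. The Lgr5 values of ENRI lie beside those of RANKL near 8.7 and 8.8, whereas for Pcsk6, Slc16a10 and Il22ra1 RANKL is the lowest culture.

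**Figure D5:**
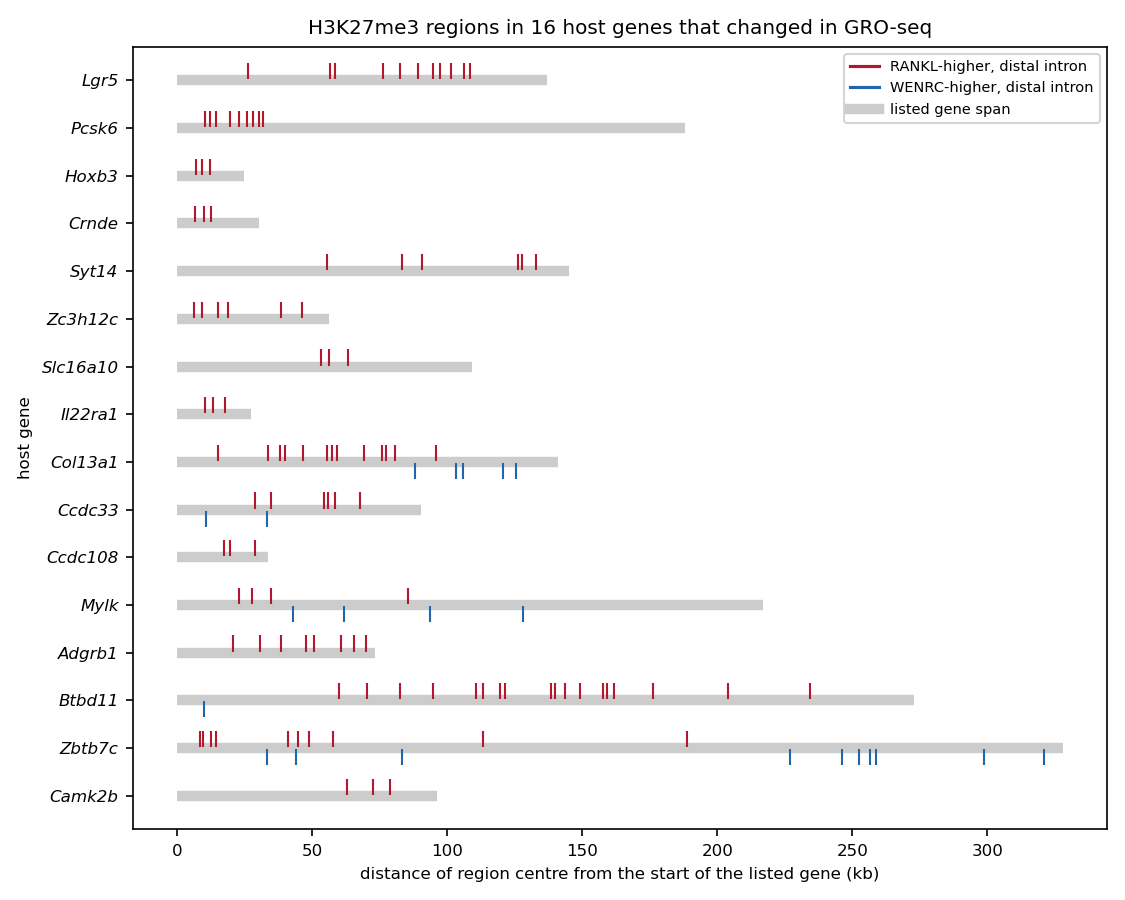
Positions of RANKL-higher (red) and WENRC-higher (blue) distal intron regions along the same 16 host genes, in kb from the start of the listed gene (x axis); grey bars are gene spans. The 8 upper genes, which fell, carry red ticks alone, and Col13a1, Ccdc33, Mylk, Btbd11 and Zbtb7c, which rose, carry both kinds.

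Some genes carried both kinds of intronic region. Of 146 hosts with at least 3 regions of each kind, 143 were tested, 3 were lower (2.10%) and 9 higher (6.29%), against 3.62% and 8.53% of all genes tested. The 3 lower were Vav3, a guanine nucleotide exchange factor (change -0.81, adjusted p = 0.0375), Park2, a ubiquitin ligase (-0.76, 0.0334), and Dlgap1, a postsynaptic scaffold protein (-1.67, 0.0424). The 9 higher were Col13a1, Zbtb7c and Mylk, given above, and Kalrn, Nckap5, Spon1, Pde4d, Slc24a4 and Rnf220, with changes between 1.05 and 2.26. In 82 of the 146 (56.2%) the median position of the RANKL-higher regions was nearer the start than that of the WENRC-higher ones.

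Among the gene lists examined, which were not matched for gene length, neuronal and developmental genes held the most regions. WENRC-higher intronic regions were also frequent in them, with 68 in 16 channel genes, 63 in 17 developmental factors, 35 in 16 glutamate and GABA receptor genes and 30 in 13 synaptic and adhesion genes. Over the 6 lists of such genes described next, 66 hosts were tested, and 2 were lower and 2 higher (3.03% each), against 3.62% and 8.53% of all genes tested. Of 30 synaptic and neural adhesion genes, 10 were hosts and held 123 regions, led by Cadm1 (34), Dscam (24) and Nrxn2 (23). All 10 were tested, 1 was lower (Cadm1) and 1 higher. The latter was Nrxn2, a presynaptic adhesion protein, with 6.97 and 7.02 in RANKL, 5.96 and 7.0 in ENRI, and 4.69 and 5.09 in WENRC. RANKL lay above WENRC but overlapped ENRI, and the change from WENRC was 2.11 (SE 0.36, adjusted p = 0.0192).

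Cadherins and protocadherins had 4 hosts among 21 genes, with 64 regions, of which 33 were in Cdh23 and 23 in Cdh22. Cdh23 was the 1 host called. Axon guidance ligands and receptors had 13 hosts among 30, with 61 regions led by Nrp2 (15), Slit1 (14) and Unc5a (9), and 1 was called, Robo1, a Slit receptor with 2 regions. Robo1 had 6.43 and 5.67 in RANKL against 7.76 and 7.26 in WENRC, all lower, with a change of -1.46 (SE 0.31, adjusted p = 0.0336). The median change of the 13 hosts was 0.06.

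Glutamate and GABA receptor genes had 7 hosts among 23, with 83 regions, 60 of them in Grik4. None of the 7 was called by limma, and 0 had an unadjusted p under 0.05. Voltage-gated channel genes had 12 hosts with 93 regions, led by Scn8a (21), Kcnma1 (19) and Cacna1d (14), and limma called none, with 1 at an unadjusted p under 0.05. Cacna1d also held 14 WENRC-higher regions and had nearly the same value in the 6 libraries (9.14 to 9.48).

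Transcription factor genes of development had the most hosts, 20 of 36, with 111 regions, led by Runx2 (18), Meis1 (14) and Pax5 (14). None of the 20 was called, with 3 at an unadjusted p under 0.05 and a median change of -0.02. Meis1, a homeobox cofactor, had 5.12 and 5.24 in RANKL against 6.72 and 6.63 in WENRC and missed the threshold (change -1.50, SE 0.42, adjusted p = 0.0723). Its RANKL values nonetheless lay below all 4 others, of which the lowest was 6.29.

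In the Wnt and R-spondin pathway, 8 of 28 genes were hosts, with 32 regions. Ror1, a Wnt receptor, held 12, Lef1, a transcription factor of the pathway, 7, and Nkd1, a feedback inhibitor, 4. Their changes were 0.25, -0.44 and -0.26, with adjusted p from 0.332 to 0.833. The 2 hosts called were the ligands Wnt3 and Wnt6. Wnt3, with 4 regions, had 8.55 and 8.26 in RANKL against 6.90 and 7.15 in WENRC, a rise of 1.38 (SE 0.31, adjusted p = 0.0425). Wnt6, with 2 regions, had 5.57 and 5.58 against 4.60 and 4.83, a rise of 0.86 (SE 0.18, adjusted p = 0.0362). In both genes each RANKL value lay above each WENRC value. Both calls were lost without any 1 RANKL or WENRC library and with upper quartile recentring.

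Of 97 genes in the lists for M, crypt stem, enterocyte, goblet, Paneth, tuft and enteroendocrine cells, 10 were hosts (10.3%), against 2162 of 23354 autosomal genes (9.26%). Of 17 crypt stem cell genes, Lgr5 with 11 and Rnf43 with 3 were the hosts. All 17 were tested, and 2 were lower and 2 higher in RANKL, with a median change of -0.21. Rnf43, a ubiquitin ligase that removes Wnt receptors, had folds of 4 to 8.15 at its regions and yet values of 12.80 and 12.82 in RANKL against 12.79 and 12.94 in WENRC. These values overlapped (change -0.06, SE 0.40, adjusted p = 0.946).

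Of 22 M cell genes, 17 were higher in RANKL and none lower by limma and 19 had an unadjusted p under 0.05. Gp2, a receptor for bacteria on the M cell surface, Ncf4, a subunit of the phagocyte oxidase, and Atoh8, a helix-loop-helix factor, each held 1 RANKL-higher intronic region. Gp2 had 8.56 and 8.65 in RANKL, 2.56 and 3.72 in ENRI, and 2.66 and 3.29 in WENRC, and its region had 20 tags against 7.2, a fold of 2.78. RANKL was far above the rest, with a change of 5.62 (SE 0.42, adjusted p = 0.00209). Ncf4 likewise had 8.39 and 8.36 in RANKL and 2.49 to 3.47 elsewhere (change 5.34, SE 0.32, adjusted p = 0.00144). Atoh8 had 7.04 and 6.71 in RANKL against 5.40 and 5.62 in WENRC (change 1.37, SE 0.26, adjusted p = 0.0254). All 3 genes had WENRC-higher regions within 5 kb of their start, 1 in Gp2, 2 in Ncf4 and 3 in Atoh8. Atoh8 also held 1 WENRC-higher intronic region. No share over all genes is given beside this, so it describes these 3 genes and not M cell genes in general.

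Among the other lineages of the gut lining, the goblet cell mucin gene Muc2 held 1 region and had 10.58 and 10.37 in RANKL, 10.86 and 11.00 in ENRI, and 7.44 and 7.0 in WENRC. WENRC was lowest, and the change was 3.25 (SE 0.19, adjusted p = 0.00144). Dclk1, a tuft cell kinase gene that held 6 of the 7 regions of the tuft list, had 7.63 and 7.61 in RANKL against 5.21 and 6.76 in WENRC and missed the threshold (change 1.63, SE 0.59, adjusted p = 0.133). The peptide transporter gene Slc15a1 of enterocytes (2 regions) and the tuft cell factor gene Pou2f3 (1 region) rose, by 1.37 (SE 0.26, adjusted p = 0.0252) and 1.31 (SE 0.23, adjusted p = 0.0194). The 9 Paneth cell genes, 15 NF-kB response genes and 12 PRC2 subunit genes held no RANKL-higher distal intron region. Markers of other cells were hosts in 3 of 10 neuron and glia genes and 3 of 10 immune genes, with 4 regions each, and limma called none of these hosts (1 and 0 at an unadjusted p under 0.05). Over all autosomal genes 9.26% were hosts, and host counts in lists this small say little about the lists.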

How the data were processed

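Per the submitters' processing notes, reads were processed with Bowtie2 2.3.4.1, HOMER and DESeq2 on mm9; which step used which is not given in the sources used here. Per the file headers, the authors summed GRO-seq reads over whole RefSeq genes with HOMER and deposited normalized log2 values; strand handling is not stated, and GRO-seq depth is unknown. H3K27me3 regions were called by the authors in 1 culture against the other, with deposited tag counts for pooled RANKL, a WENRC signal scaled by 0.9, a fold (ratio of tags) and a p-value per region. The authors' adjusted p-values of the GRO-seq table served as an alternative. The authors' own log2 folds were larger at genes low in a culture, 9.79 at Gp2 and -4.20 at Hoxb3. From limma these changes were 5.62 and -2.67. At Mylk, with higher values, the authors' fold was 4.48 and the limma change 3.99. Sizes and ranks of changes at low genes therefore depend on the values used.

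The GRO-seq values were tested with limma 3.58.1 (R 4.3.3) with a variance trend on all 6 libraries, two-sided, for 16563 genes with at least 2 libraries at log2 of 10 or more, called at an FDR under 0.05. On data simulated for this comparison (16563 genes, 200 changed) it recovered 17.9%, 67.2% and 97.0% of genes changed by 1, 2 and 4 on the log2 scale, and 6.92% of its calls were false. Symbols turned into dates (26) were restored. The host is the gene named in the intron annotation. Intervals of folds are exact (Clopper-Pearson) at 95% and cover counting error only.

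Named regions were the 5 of smallest p, the 5 with most tags and the 3 on each side of 5000 bp. Named hosts were the 10 with most regions, the 6 densest per 100 kb, the 8 largest falls and 8 largest rises among called hosts with 3 or more regions, and, per gene list, up to 3 hosts with most regions and up to 4 called. The hosts of the largest fold and of both kinds of region were named after their values were seen. The regions, gene lists and rules were chosen with earlier results of these data known. Region sequences were not used here, and start-site sequences are credited to RefSeq (GRCm38.p6). A comparison of CG content over all hosts is not reported here, since 77.2% of them have a sequence in that table, short of the 80% set as the minimum.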

Additional observations from a re-analysis of the deposited data

How the results depend on the processing

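The H3K27me3 differences have no replicate, and 2 GRO-seq libraries per culture set the precision. Of the 7845 regions, 1258 had a fold of at least 4, 4185 an authors' p of at most 1e-06, and 6476 lay over 10000 bp from a start site. With all 6 libraries, 2012 genes were called, with 72 hosts lower and 111 higher. The 4 RANKL and WENRC libraries alone gave 5205 genes, and 222 and 216 of 1655 hosts, against 13.4% and 18.3% of all genes. The authors' deposited test gave 4604 genes, and 196 and 190 of 1685 hosts, against 11.1% and 16.7% of all genes. Leaving out 1 library gave 0 to 5193 genes, 0 to 222 hosts lower and 0 to 216 higher. The 0 counts come from leaving out RANKL library 1 (hosts at an unadjusted p under 0.05: 99 lower, 127 higher) or 2 (91 and 138). A stricter filter, no filter, quantile normalization and upper quartile recentring stayed within 1.5 times the counts of genes and hosts. Counting only regions with a fold of at least 4 gave 47 and 42 hosts, and only hosts of 3 or more regions 35 and 44. Hosts that overlap no other listed gene, a restriction chosen after seeing the data, gave 52 and 83, and the gene of the nearest start site in place of the host 77 and 114.

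With the replicate number as a block, 1465 genes were called, with 49 hosts lower and 106 higher, and of 41 genes named here and called, 5 were lost: Zc3h12c (adjusted p 0.0507; 1.53e-04 to 0.278 over its alternatives), Wnt3, Wnt6, Vav3 and Dlgap1. Without 1 WENRC library 26 or 27 of the 41 were lost, and without 1 RANKL library 41. RANKL and WENRC share a number and no stated animal (r = -0.32 between their replicate differences, over genes). WENRC and ENRI libraries of 1 number share a mouse per the labels (r = 0.41), which the fit without the block does not use. The median change over hosts was 0.02, and -0.16 without WENRC library 1 and 0.17 without WENRC library 2. None of the 16 named falls and rises reversed direction under an alternative.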

Other observations

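The density of RANKL-higher distal intron regions differed between chromosomes. Over all autosomes it was 8.20 regions per Mb of gene body, against 3.67 WENRC-higher ones. It ranged from 4.63 on chromosome 3 to 12.5 on chromosome 9, and the ratio of RANKL-higher to WENRC-higher regions ranged from 1.09 on chromosome 13 to 3.76 on chromosome 7. Repeats annotated at the region centre were SINE elements in 8.99% of the RANKL-higher intronic regions, LINE elements in 5.76% and LTR elements in 5.77%. RANKL-higher intergenic regions more than 5 kb from a start site had 10.4% in LTR and 7.03% in LINE elements. CpG islands were annotated at 42 RANKL-higher intronic regions (0.535%) and at 1 of the 3513 WENRC-higher ones.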
